A study of Mus musculus with 6 samples.

Results

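The genes described here are 39 components and regulators of DNA replication, chosen by name and all found in the deposited count table of 55804 rows. They were measured by RNA-seq in C2C12 cells, a mouse myoblast line whose cells leave the cell cycle and form multinucleate myotubes in low serum. The control cells carried a control guide RNA (Ctrl-gRNA, genotype given as WT), while the other cells had a guide RNA to Prr33 (Prr33-gRNA, genotype given as PRR33 knocked down). Both groups were collected on day 3 of differentiation medium with horse serum, and each has 3 libraries, with 17006381 to 19471762 counted reads per library. The labels do not say whether the cells with a guide were a clone or a pool, nor whether libraries came from separate cultures. The p-values therefore measure the spread among the deposited libraries only, and that spread may be technical.

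Before a cell copies its DNA, the origin recognition complex, CDC6 and CDT1 load the ring-shaped MCM helicase onto replication origins, a step called licensing. In S phase CDC45 and the GINS complex switch the helicase on, polymerases copy both strands behind it, and the clamp PCNA holds them on the template. Many of these genes are transcribed by E2F factors when cyclin E and CDK2 drive entry into S phase, and most are turned down when myoblasts leave the cell cycle.

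Levels are given as CPM, reads per 1000000 counted reads after TMM scaling, which compares libraries. Levels of different genes are compared only as FPKM, which also divides by gene length. Differences are log2 fold changes, positive where Prr33-gRNA was higher, tested with edgeR's quasi-likelihood test and called at a Benjamini-Hochberg adjusted p below 0.05 over 14651 tested genes. The targeted gene Prr33 fell, with 54.4 to 61.5 CPM among Ctrl-gRNA libraries but 42.4 to 45.9 CPM among Prr33-gRNA libraries (log2 fold change -0.42, SE 0.06; edgeR adjusted p = 1.37e-06). Muscle markers were abundant in both groups, with 8 of them summing to 26779 to 27277 CPM (Ctrl-gRNA) and 15074 to 15970 CPM (Prr33-gRNA). The largest were Myh3 and Acta1, at means of 12684 and 9885 CPM in Ctrl-gRNA and 5282 and 7359 CPM in Prr33-gRNA. Among the 8 muscle markers 7 fell and 1, Ckm, rose (87.5% and 12.5%, against 26.6% lower and 25.5% higher of all tested genes). Their log2 fold changes ran from -1.63 (Myog) to 0.24 (Ckm). Fibroblast markers summed to 1092 to 1178 CPM (Ctrl-gRNA) and 773 to 836 CPM (Prr33-gRNA), of which Col3a1 alone had means of 1117 and 797 CPM. Dcn had means of 13.8 and 3.00 CPM and Pdgfra 6.93 and 4.93 CPM. Thy1 had at most 3 counts in any library, and Lum was at 0 counts. The markers of adipocytes, of macrophages and blood, and of endothelium each summed to at most 1.82 CPM in any library. Adipoq, Plin1, Cidec, Ptprc, Adgre1, Hbb-bs, Tie1 and Emcn were at 0 counts throughout. The part of the muscle and fibroblast marker shifts in the results below was not tested.

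Replication genes were mostly higher in the Prr33-gRNA libraries, by moderate amounts. All 39 were tested; 26 rose, 2 fell and 11 did not pass. That is 66.7% higher and 5.13% lower, where 25.5% of all tested genes were higher, 26.6% lower and 52.1% called in either direction. The median log2 fold change of the members was 0.30, against -0.00 over all tested genes. With scaling by library size alone, 4999 of the tested genes were higher and 3103 lower, in place of 3740 and 3899, with a shift of 0.09 in the median of all genes, and 32 members were higher and 2 lower. The members' values ran from -0.77 for Mcm6 to 0.97 for Cdc6, so none reached a 2-fold difference. In 24 members every Prr33-gRNA library lay above every Ctrl-gRNA library in CPM, and in 4 every one lay below. Over all tested genes those shares were 28.6% and 29.3%. In bulk RNA, more cells in S phase and more RNA of these genes per cell cannot be told apart.

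**Figure D1:**
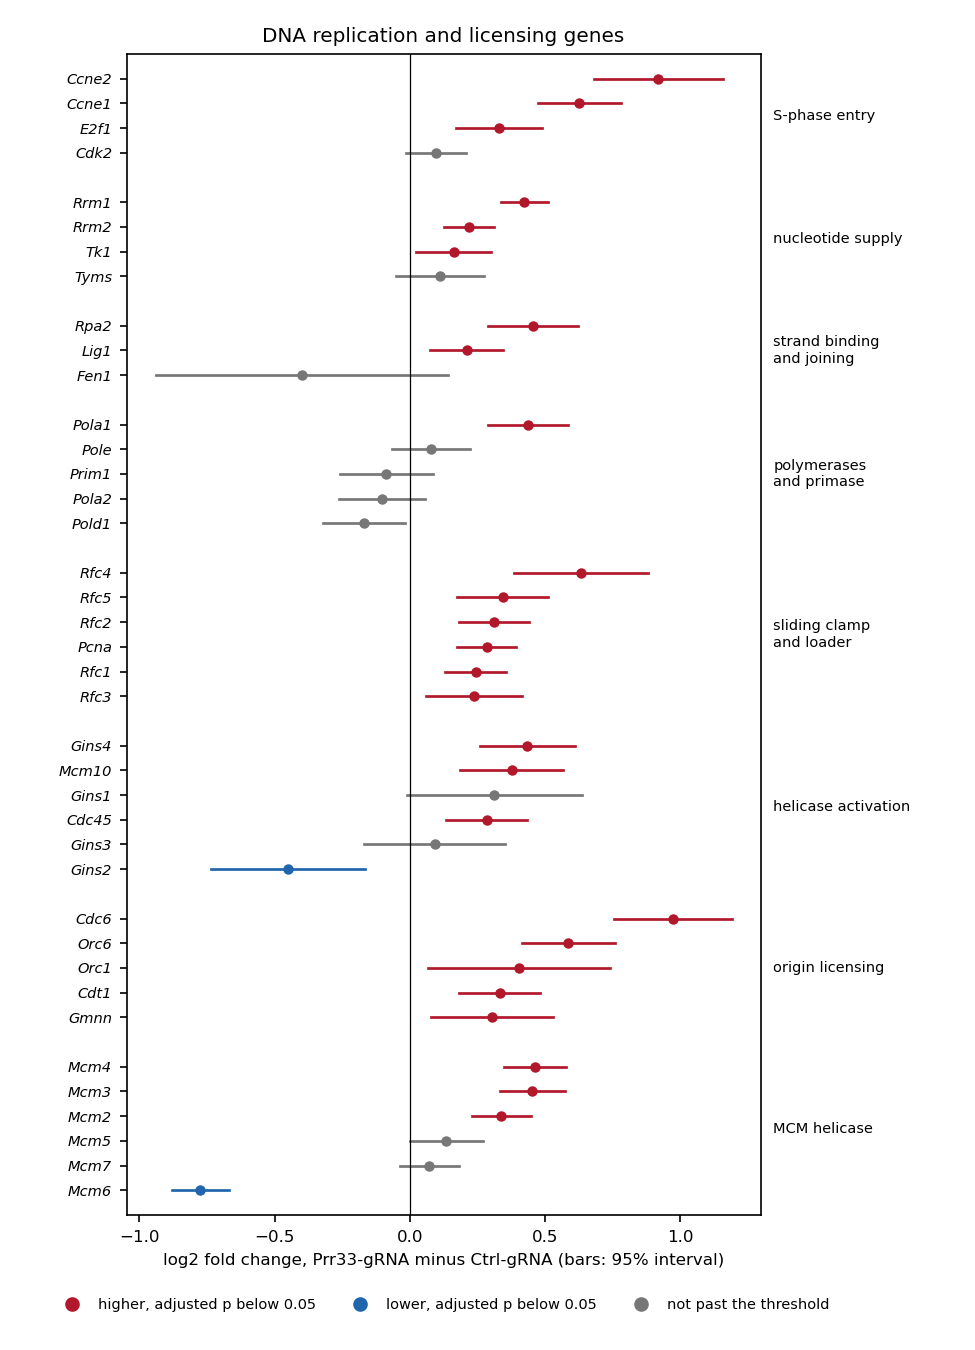
Log2 fold change of each of the 39 replication genes, positive where Prr33-gRNA was higher (edgeR, 3 libraries a group), grouped by role, with bars for the 95% interval. Points are red for higher, blue for lower and grey for genes not past the threshold, and only Mcm6 and Gins2 are blue.

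As a share of all reads, the 39 genes together took 0.180%, 0.176% and 0.188% of the 3 Ctrl-gRNA libraries. Their share of the 3 Prr33-gRNA libraries was 0.215%, 0.229% and 0.220%. The means were 0.181% ± 0.00602 and 0.221% ± 0.00673 (SD, n = 3). These shares carry no TMM scaling. With library size alone the median log2 fold change of all tested genes was itself 0.09, so part of the rise is common to other genes. The ranges did not overlap, and an exact two-sided permutation test gave p = 0.10, the smallest that 3 libraries against 3 allow. By library, the median member stood 0.25, 0.35 and 0.25 above the Ctrl-gRNA mean on the log2 CPM scale in Prr33-gRNA replicates 1, 2 and 3. Within the Ctrl-gRNA group the same median ran from -0.04 to 0.07. Prr33-gRNA replicate 2 was the highest of its group for 20 members, and Ctrl-gRNA replicate 3 was the highest of its group for 25.

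**Figure D2:**
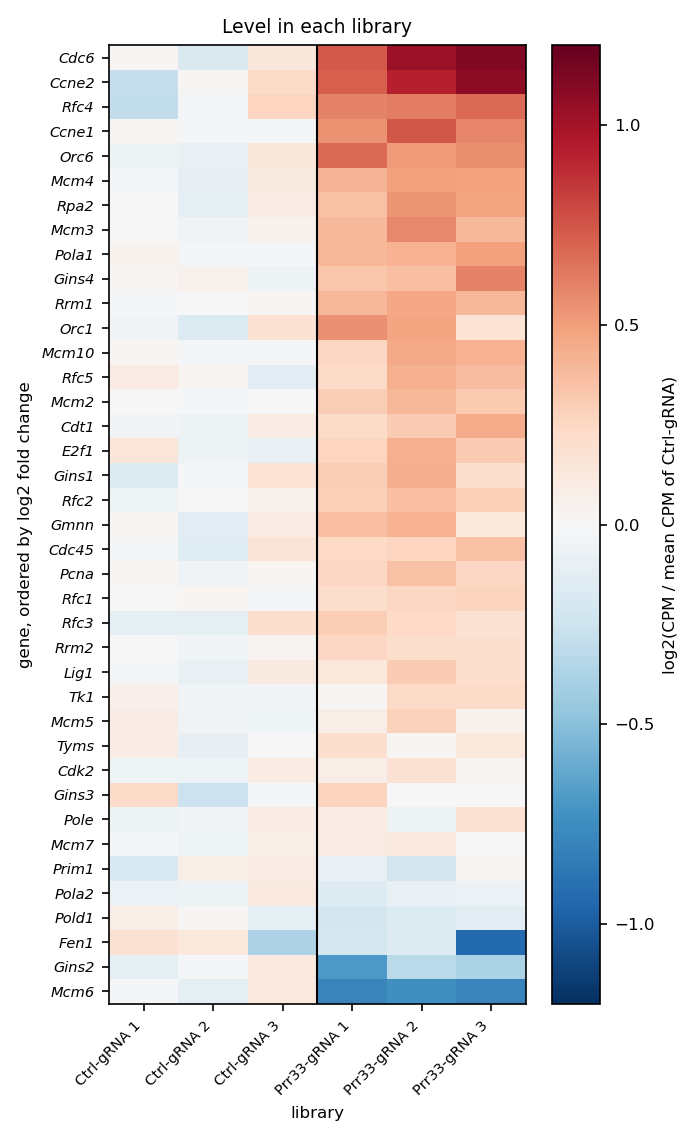
Level of each replication gene (rows, ordered by log2 fold change) in each of the 6 libraries (columns), as log2 of CPM over the Ctrl-gRNA mean. The rows from Cdc6 to Rrm2 are red across all 3 Prr33-gRNA columns, and Mcm6 and Gins2 are blue there. Fen1, Pold1 and Pola2, which did not pass the threshold, are also below 0 in all 3.

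The promoters of the 4 members with the lowest adjusted p among those with an entry are shown because these genes share regulation by E2F in textbook accounts while one of them fell. RefSeq (GRCm38.p6) gave promoter windows of 300 bases, from 250 before to 50 after the annotated start, for 31 of the 39 genes. Capitals mark matches on either strand to the E2F motif, searched as TTTCCCGC, TTTCGCGC, TTTGCCGC and TTTGGCGC, or to CCAAT, which reads ATTGG on the other strand. The windows are Mcm6 at chr1:128359656-128359955 (minus strand), Rrm1 at chr7:102441445-102441744 (plus strand), Cdc6 at chr11:98907901-98908200 (plus strand) and Ccne1 at chr7:38107441-38107740 (minus strand).
Mcm6: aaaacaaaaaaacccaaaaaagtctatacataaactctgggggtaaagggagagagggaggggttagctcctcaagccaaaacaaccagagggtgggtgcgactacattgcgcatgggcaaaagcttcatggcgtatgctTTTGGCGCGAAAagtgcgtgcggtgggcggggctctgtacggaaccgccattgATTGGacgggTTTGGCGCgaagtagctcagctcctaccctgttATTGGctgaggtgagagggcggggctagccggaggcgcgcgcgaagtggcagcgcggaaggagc
Rrm1: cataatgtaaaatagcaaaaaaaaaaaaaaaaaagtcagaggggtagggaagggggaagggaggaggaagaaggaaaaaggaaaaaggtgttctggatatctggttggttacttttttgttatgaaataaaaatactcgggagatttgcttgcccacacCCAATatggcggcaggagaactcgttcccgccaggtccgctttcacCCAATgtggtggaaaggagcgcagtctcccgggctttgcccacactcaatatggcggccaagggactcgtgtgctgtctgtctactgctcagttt
Cdc6: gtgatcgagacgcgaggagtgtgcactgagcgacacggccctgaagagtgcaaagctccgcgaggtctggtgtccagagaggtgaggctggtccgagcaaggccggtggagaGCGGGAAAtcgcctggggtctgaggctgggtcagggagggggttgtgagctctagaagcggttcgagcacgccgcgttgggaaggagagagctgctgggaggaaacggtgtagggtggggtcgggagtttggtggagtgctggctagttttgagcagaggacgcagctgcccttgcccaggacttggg
Ccne1: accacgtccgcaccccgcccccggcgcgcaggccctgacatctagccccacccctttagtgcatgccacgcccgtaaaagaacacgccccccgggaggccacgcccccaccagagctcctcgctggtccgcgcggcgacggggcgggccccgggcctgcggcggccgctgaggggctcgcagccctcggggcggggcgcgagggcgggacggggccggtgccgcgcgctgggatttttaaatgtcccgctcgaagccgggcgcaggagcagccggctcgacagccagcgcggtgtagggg
Mcm6 held 3 E2F matches, starting at positions -110, -106 and -47 from the RefSeq start, of which the first 2 overlap, and 2 CCAAT matches. Cdc6 held 1 E2F match, at position -138. Rrm1 held 2 CCAAT matches and no E2F match, and Ccne1 held neither.

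E2F motifs were common in these windows. The motif was found for 13 of 31 replication genes (41.9%), compared with 477 of 10125 tested genes with an entry (4.71%). Over all 27025 genes with an entry the share was 2.60%. CCAAT was found for 61.3% of the replication genes and 43.3% of the tested genes (41.1% of all genes with an entry). The cell-cycle homology element, searched as TTTGAA, was found for 12.9% and 14.3% (20.2% of all genes with an entry). Median GC content was 60.0% in the members' windows and 60.7% in those of the tested genes. Of the 13 genes with the E2F motif 7 rose, 1 fell and 5 did not pass, with a median log2 fold change of 0.21. Of the 18 without a match to the searched letters 14 rose, 0 fell and 4 did not pass, with a median of 0.31. A gene without a match may still hold an E2F site with other letters or outside its window, which was not tested. Some windows, such as those of E2f1 and Cdc6, lie wholly between the deposited start and end of the gene. Other helicase genes, Mcm3, Mcm5 and Mcm7, held 2 matches each in 1 window, and their fold changes were 0.45, 0.13 and 0.07.

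**Figure D3:**
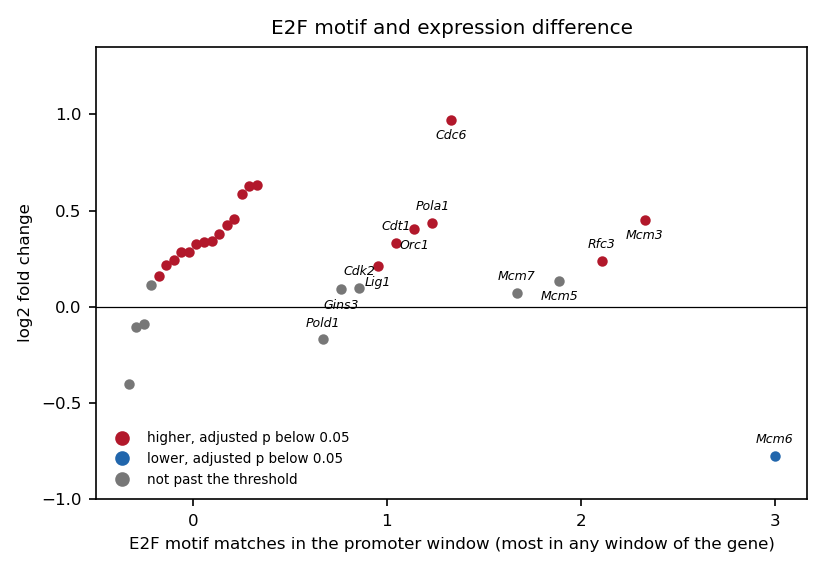
Log2 fold change of the 31 replication genes with a promoter entry (vertical axis) by the number of E2F motif matches in the window (horizontal axis; points are spread sideways within a count for legibility). Mcm6, at 3 matches, is the single blue point, below 0, while genes with 0, 1 or 2 matches lie mostly above 0.

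The MCM helicase is a ring of 6 different subunits, and its genes did not move together. Mcm4, Mcm3 and Mcm2 rose, Mcm5 and Mcm7 did not pass, and Mcm6 fell. Mcm6 (ENSMUSG00000026355, chromosome 1, 128331590 to 128359664, minus strand, mm10) stood at 214, 202 and 237 CPM in Ctrl-gRNA replicates 1 to 3. Prr33-gRNA replicates 1 to 3 had 126, 131 and 125 CPM. The groups lay far apart, with a log2 fold change of -0.77 (SE 0.05; edgeR adjusted p = 1.08e-14). Mcm4 had 68.7, 64.5 and 74.5 CPM in Ctrl-gRNA and 91.7, 97.4 and 97.0 CPM in Prr33-gRNA, a rise of 0.46 (SE 0.06; edgeR adjusted p = 1.98e-08). Mcm3 had 63.2, 61.7 and 65.7 CPM against 83.2, 94.7 and 83.3 CPM, a rise of 0.45 (SE 0.06; edgeR adjusted p = 5.56e-08). Mcm2 had 71.1, 70.2 and 70.7 CPM against 86.6, 93.1 and 88.1 CPM, a rise of 0.34. For these 3 genes no Prr33-gRNA library overlapped the Ctrl-gRNA range. Mcm5 had 57.1, 52.4 and 51.9 CPM against 56.6, 65.1 and 55.7 CPM, and Mcm7 had 89.1 to 97.0 CPM against 92.1 to 101 CPM. Their groups overlapped, and the 95% intervals of their log2 fold changes reached 0.27 and 0.18. Mcm5 was called higher without Ctrl-gRNA replicate 1 or without Prr33-gRNA replicate 3, at 0.18 each, while without Prr33-gRNA replicate 2 its value was 0.06 (edgeR adjusted p = 0.461). Scaling by library size alone called both Mcm5 and Mcm7 higher, at 0.22 and 0.16.

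**Figure D4:**
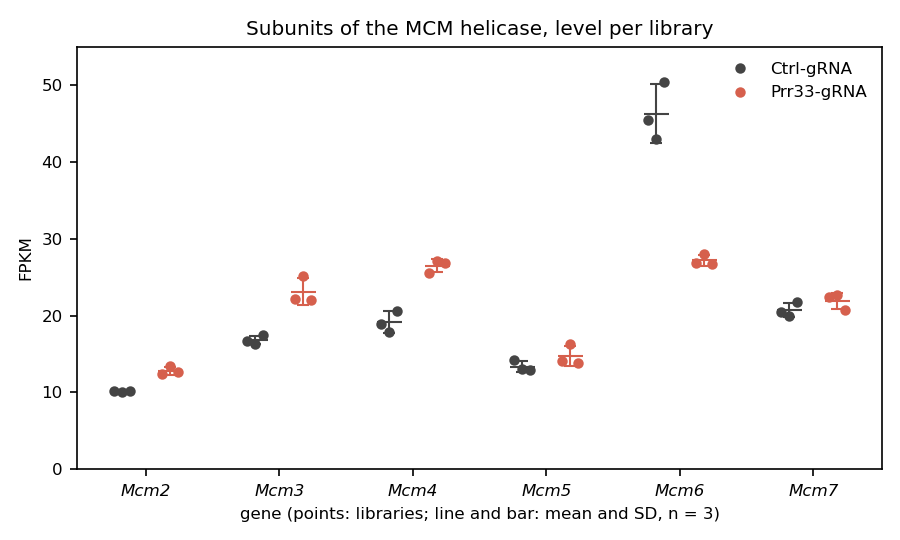
FPKM of the 6 MCM subunit genes in each library (points), with the mean and SD of each group (n = 3; grey for Ctrl-gRNA, red for Prr33-gRNA). Mcm6 falls from 46.3 to 27.2 FPKM on average, while Mcm2, Mcm3 and Mcm4 are higher in every Prr33-gRNA library.

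Per length, Mcm6 had the highest level of the 6 helicase genes in both groups, by a smaller margin in the Prr33-gRNA cells. Its level was 46.3 ± 3.82 FPKM in Ctrl-gRNA and 27.2 ± 0.70 FPKM in Prr33-gRNA (SD, n = 3). The next subunit was Mcm7 in Ctrl-gRNA, at 20.8 ± 0.95 FPKM, and Mcm4 in Prr33-gRNA, at 26.5 ± 0.86 FPKM. With these lengths, Mcm6 and Mcm4 did not differ beyond their spread in Prr33-gRNA, while Mcm5 and Mcm2 had 14.8 and 12.8 FPKM. Mcm6 made up 35.8% to 37.8% of the summed FPKM of the 6 genes in control libraries and 21.1% to 21.8% in Prr33-gRNA libraries. That sum itself overlapped between groups, running from 120.1 to 133 FPKM among control libraries and from 123 to 133 FPKM among the others. Relative to the mean log2 FPKM of the other 5 subunits, Mcm6 was 1.58 ± 0.08 higher in Ctrl-gRNA and 0.51 ± 0.04 higher in Prr33-gRNA (SD, n = 3). The difference between groups in that log2 ratio was -1.06 (exact two-sided permutation p = 0.10, the smallest possible here). This ratio was chosen with the fall of Mcm6 already known. The deposited lengths count every annotated exonic base. With the length of the principal coding transcript instead, a step added after the data were seen, Mcm6 had 74.3 and Mcm7 31.0 on that scale in Ctrl-gRNA. In Prr33-gRNA the same scale gave 43.6 for Mcm6, 32.8 for Mcm7 and 26.5 for Mcm4, so there Mcm6 stood apart from Mcm4 as well.

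The fall of Mcm6 was not shared by its neighbours on chromosome 1. The 3 tested genes within 200 kb, looked up after the fall was seen, were all higher. R3hdm1 rose by 0.18, Ubxn4 by 0.25 and the aspartyl-tRNA synthetase gene Dars by 0.14. Mcm6 shares no exonic base with another gene in GENCODE M21. None of the 39 members lies on chromosome 14, where the 400 tested protein-coding genes had a median log2 fold change of -0.90.

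Among the origin licensing genes all 5 rose. Cdc6, the loader of the helicase, rose most, from 12.98, 11.3 and 14.1 CPM in Ctrl-gRNA to 21.3, 26.3 and 27.7 CPM in Prr33-gRNA (log2 fold change 0.97, SE 0.11; edgeR adjusted p = 2.50e-09). Every Prr33-gRNA library was above every Ctrl-gRNA library, and Prr33-gRNA replicate 1 was the lowest of its group. Orc6, an origin recognition subunit, rose from 20.7, 20.4 and 23.8 CPM to 34.7, 30.9 and 31.9 CPM (0.59, SE 0.08). Cdt1, which works with CDC6, had 32.1 to 35.6 CPM against 39.2 to 45.7 CPM (0.33). Gmnn encodes geminin, the inhibitor that binds CDT1 to stop relicensing. Its groups did not overlap, at 12.1 to 14.4 CPM and 14.6 to 17.8 CPM (0.30, SE 0.11; edgeR adjusted p = 0.0219), but the call was lost without any one of Ctrl-gRNA replicate 2, Prr33-gRNA replicate 1 and Prr33-gRNA replicate 2 (edgeR adjusted p = 0.117, 0.0728 and 0.0911). Orc1, the largest origin recognition subunit, had 5.52, 5.03 and 6.37 CPM against 8.27, 7.86 and 6.30 CPM. Prr33-gRNA replicate 3 fell within the Ctrl-gRNA range, and the rise of 0.40 (SE 0.16; edgeR adjusted p = 0.0391) was lost in 8 of 17 alternative fits, among them DESeq2 and limma-voom.

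The genes that switch the helicase on were split. Cdc45 rose from 32.4 to 39.8 CPM in Ctrl-gRNA to 42.2 to 45.8 CPM in Prr33-gRNA (0.28, SE 0.07). Mcm10, an initiation factor that is not part of the helicase ring, rose from 17.04 to 17.5 CPM to 20.4 to 23.6 CPM (0.38, SE 0.09). Of the 4 GINS subunits, Gins4 rose, Gins1 and Gins3 did not pass, and Gins2 fell. Gins4 had 22.1, 22.7 and 20.96 CPM against 27.6, 28.1 and 33.02 CPM (0.43, SE 0.09; edgeR adjusted p = 7.27e-05). Gins1 did not overlap between groups, at 5.35 to 6.73 CPM and 6.85 to 8.13 CPM, but missed the threshold (0.31; edgeR adjusted p = 0.0987). Gins3 overlapped, at 9.83 to 13.8 CPM and 11.8 to 14.2 CPM, with a 95% interval of -0.17 to 0.35.

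The value of Gins2 is uncertain. It had 9.57, 10.2 and 11.2 CPM in Ctrl-gRNA and 6.42, 8.24 and 7.95 CPM in Prr33-gRNA (-0.45, SE 0.14; edgeR adjusted p = 0.00715), and lost the call without Prr33-gRNA replicate 1 (-0.35; edgeR adjusted p = 0.0607). In GENCODE M21, 2758 of its 4097 exonic bases (67.3%) are also exonic in Gse1, which fell to a mean of 24.4 CPM from 55.96 CPM (edgeR adjusted p = 4.44e-16). The counts of Gse1 were 1128, 891 and 887 (Ctrl-gRNA) and 444, 448 and 483 (Prr33-gRNA). The sources used here do not give the strand setting, so reads over the shared bases cannot be assigned to either gene. The part of Gse1 reads in the Gins2 counts was not tested. Fen1, the flap endonuclease that trims Okazaki fragments, is in the same position, with 84.2% of its exonic bases shared, mostly with Gm10143. Its counts per library ran from 36 to 58 (Ctrl-gRNA) and from 29 to 45 (Prr33-gRNA), and it did not pass (-0.40, SE 0.27). Without Gins2 and Fen1, a step added after the data were seen, 26 of 37 members rose and 1 fell. Another 12 members share 0.547% to 17.4% of their exonic bases with another gene, and 25 share none.

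The sliding clamp and its loader rose as a whole, with 6 of 6 genes past the threshold. Pcna had 81.7, 78.4 and 81.8 CPM in Ctrl-gRNA and 95.8, 103 and 95.6 CPM in Prr33-gRNA (0.28, SE 0.05; edgeR adjusted p = 2.99e-05). The groups were well separated. The loader, replication factor C, has 1 large and 4 small subunits that open the PCNA ring. Its large subunit gene Rfc1 had 64.0, 64.7 and 62.8 CPM against 74.1, 75.8 and 76.9 CPM (0.24, SE 0.06). Among the small subunits, Rfc4 rose most, from 8.65, 10.6 and 12.7 CPM to 16.1, 16.3 and 17.01 CPM (0.63, SE 0.12; edgeR adjusted p = 4.43e-05). The Ctrl-gRNA libraries of Rfc4 were spread widely, with a coefficient of variation of 18.97%, against 2.95% in Prr33-gRNA. Rfc5 rose by 0.34 and Rfc2 by 0.31. Rfc3 rose by 0.24 (edgeR adjusted p = 0.0215), but Ctrl-gRNA replicate 3, at 29.1 CPM, overlapped the Prr33-gRNA range of 28.6 to 31.1 CPM. Its call was lost without Ctrl-gRNA replicate 1 or 2 or without Prr33-gRNA replicate 1 (edgeR adjusted p = 0.121, 0.111 and 0.0812).

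Of the 5 polymerase and primase genes 1 passed the threshold. That is 20% higher and 0% lower, against 25.5% and 26.6% of all tested genes, with a median log2 fold change of -0.09. Pola1, the catalytic subunit of polymerase alpha that starts each new strand, rose from 29.6, 28.5 and 28.3 CPM to 38.1, 38.5 and 40.4 CPM (0.44, SE 0.07; edgeR adjusted p = 4.74e-06). Its partners in the same complex did not pass. Pola2, the accessory subunit, had 30.0, 30.2 and 34.1 CPM against 28.2, 29.7 and 29.9 CPM, with a 95% interval of -0.26 to 0.06. Prim1, the primase that lays down the RNA primer, had 28.3, 33.6 and 34.2 CPM against 30.1, 27.4 and 32.7 CPM, with an interval of -0.26 to 0.08. Both intervals lie wholly below the interval of Pola1, 0.29 to 0.58, although the difference between these genes was not itself tested. Pold1, the catalytic subunit of the lagging-strand polymerase delta, had 37.0, 35.3 and 32.5 CPM against 30.0, 31.2 and 31.9 CPM. The groups did not overlap, and the value of -0.17 just missed the threshold (edgeR adjusted p = 0.0580). It was called lower in 4 of 17 alternative fits, among them the one without Ctrl-gRNA replicate 3 (-0.22). Pole, for the leading-strand polymerase epsilon, overlapped between groups at 39.7 to 44.1 CPM and 39.7 to 46.8 CPM.

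Of the other fork genes, Rpa2 and Lig1 rose. Rpa2 encodes a subunit of the protein that coats single-stranded DNA. It had 24.6, 22.7 and 26.2 CPM in Ctrl-gRNA and 31.3, 35.4 and 34.0 CPM in Prr33-gRNA (0.45, SE 0.08; edgeR adjusted p = 1.56e-05). Lig1, the ligase that joins Okazaki fragments, had 46.1 to 53.1 CPM against 53.6 to 60.6 CPM (0.21). The groups of Lig1 almost touched, and the call was lost without Ctrl-gRNA replicate 2 or without Prr33-gRNA replicate 2 (edgeR adjusted p = 0.0742 and 0.0506).

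The genes for DNA precursor supply ranged from rank 1 (Rrm2) to rank 29 (Tyms) among the 39 genes in FPKM in both groups. Rrm1, the large subunit of ribonucleotide reductase, had 223, 224 and 226 CPM in Ctrl-gRNA and 296, 309.5 and 296 CPM in Prr33-gRNA (0.42, SE 0.04; edgeR adjusted p = 2.30e-10). Its libraries agreed closely within each group. Rrm2, the small subunit whose level limits the enzyme in S phase, had 159.9, 156 and 164 CPM against 189.8, 186 and 183 CPM (0.22, SE 0.05; edgeR adjusted p = 1.28e-04). Per length Rrm2 ranked highest of the 39 genes in both groups, at 57.3 ± 1.59 FPKM and 67.0 ± 1.37 FPKM (SD, n = 3), although with principal transcript lengths Mcm6 ranked above it in Ctrl-gRNA. Tk1, the S-phase thymidine kinase, had 44.8, 42.2 and 42.0 CPM against 43.3, 50.5 and 50.5 CPM. Its rise of 0.16 (edgeR adjusted p = 0.0490) lies at the threshold and was lost in 10 of 17 alternative fits. Prr33-gRNA replicate 1 lies within the Ctrl-gRNA range. Tyms, thymidylate synthase, overlapped between groups at 26.9 to 30.7 CPM and 29.1 to 33.1 CPM, and did not pass (0.11, 95% interval -0.05 to 0.27).

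Both E-type cyclins, which activate CDK2 at the start of S phase, rose. Ccne2 had 14.98, 18.4 and 21.4 CPM in Ctrl-gRNA and 30.1, 34.8 and 38.4 CPM in Prr33-gRNA (0.92, SE 0.11; edgeR adjusted p = 1.45e-06). Ccne1 had 27.5, 26.4 and 26.6 CPM against 39.1, 44.9 and 40.4 CPM (0.63, SE 0.08; edgeR adjusted p = 1.10e-08). No library of one group reached the other for either gene. E2f1, an activator of this gene programme, rose from 28.1 to 33.1 CPM to 35.8 to 40.2 CPM (0.33, SE 0.08). Cdk2 itself overlapped between groups, at 84.2 to 92.8 CPM and 89.4 to 98.2 CPM, and did not pass (0.10, 95% interval -0.02 to 0.21). It was called higher without Ctrl-gRNA replicate 3 (0.15) and with scaling by library size alone (0.19), while without Prr33-gRNA replicate 2 its value was 0.06 (edgeR adjusted p = 0.414).

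A wider list of 62 other replication genes also held more higher than lower genes. Of the 59 that were tested 34 rose, 6 fell and 19 did not pass, with a median log2 fold change of 0.26. That is 57.6% higher and 10.2% lower, against 25.5% and 26.6% of all tested genes. Pold4 and Chtf8 had too few counts to be tested, and Skp2 is listed at 0 in every library. Chtf8 shares 91.8% of its exonic bases with another entry of the same name, and Pold4 shares 24.6% with another gene. The part of this overlap in their low counts was not tested. Among 14 licensing and firing genes 8 rose and 0 fell. Dbf4, the activator of the CDC7 kinase that fires origins, rose from 33.2 to 35.6 CPM to 52.5 to 61.2 CPM (0.74, SE 0.07; edgeR adjusted p = 3.85e-11). Topbp1 rose by 0.44, and the origin recognition genes Orc2 and Orc4 by 0.50 and 0.39, although Orc2 shares 29.8% of its exonic bases with Nif3l1.

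Among 14 tested fork enzymes 9 rose and 1 fell. Dna2, a nuclease that also processes Okazaki flaps, rose from 9.25, 10.2 and 9.89 CPM to 21.5, 23.2 and 21.4 CPM, a log2 fold change of 1.17 (SE 0.10; edgeR adjusted p = 1.42e-11). Top2a, a topoisomerase that untangles daughter strands, rose by 0.28. The subunits of ribonuclease H2, which removes ribonucleotides from DNA, parted. Rnaseh2c rose by 0.92, with 24.8% of its exonic bases shared with Kat5, and Rnaseh2b, on chromosome 14, fell by 1.21. Among 7 tested fork protection and alternative loader genes 4 rose and 2 fell (57.1% and 28.6%, against 25.5% and 26.6% of all tested genes). Clspn, Tipin and Atad5 rose by 0.51, 0.49 and 0.42. Timeless, whose protein binds that of Tipin, fell from 17.7 to 10.98 CPM on average (-0.69, SE 0.11; edgeR adjusted p = 4.33e-06). The other gene of this list that fell, Wdhd1 (-0.35), also lies on chromosome 14.

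Of 7 other nucleotide supply genes 5 rose and 1 fell (71.4% and 14.3%, against 25.5% and 26.6% of all tested genes). Dck, the deoxycytidine kinase of the salvage route, rose by 0.80 and Rrm2b by 0.31. Samhd1, which breaks down deoxynucleotides and restricts viruses, fell from 157, 149 and 153 CPM to 68.1, 59.8 and 61.9 CPM (-1.28, SE 0.05; edgeR adjusted p = 2.28e-20). Of 6 genes of replication-coupled chromatin 4 rose and 0 fell (66.7% and 0%, against the same shares of all tested genes). Chaf1b and Asf1b, for histone chaperones, rose by 0.75 and 0.62, and the maintenance methyltransferase gene Dnmt1 by 0.32. The rise of Uhrf1, 0.15 (edgeR adjusted p = 0.0405), was lost in 8 of 17 alternative fits, among them DESeq2 and limma-voom, and was 0.09 without Ctrl-gRNA replicate 2 (edgeR adjusted p = 0.285). Of 11 tested S-phase control genes 4 rose and 2 fell (36.4% and 18.2%, against 25.5% and 26.6% of all tested genes). E2f7, among the 4, lost its call in 8 of 17 alternative fits. Tfdp2 and Tfdp1, for the dimerization partners of E2F, rose by 0.80 and 0.27, and cyclin A2 (Ccna2) by 0.27. E2f2, an activator E2F like E2f1, fell from 80.5 to 54.5 CPM on average (-0.56, SE 0.06; edgeR adjusted p = 2.24e-10). E2f8, the other that fell (-0.15; edgeR adjusted p = 0.0491), lost the call in 10 of 17 alternative fits. With scaling by library size alone its value was -0.06 (edgeR adjusted p = 0.459).

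**Figure D5:**
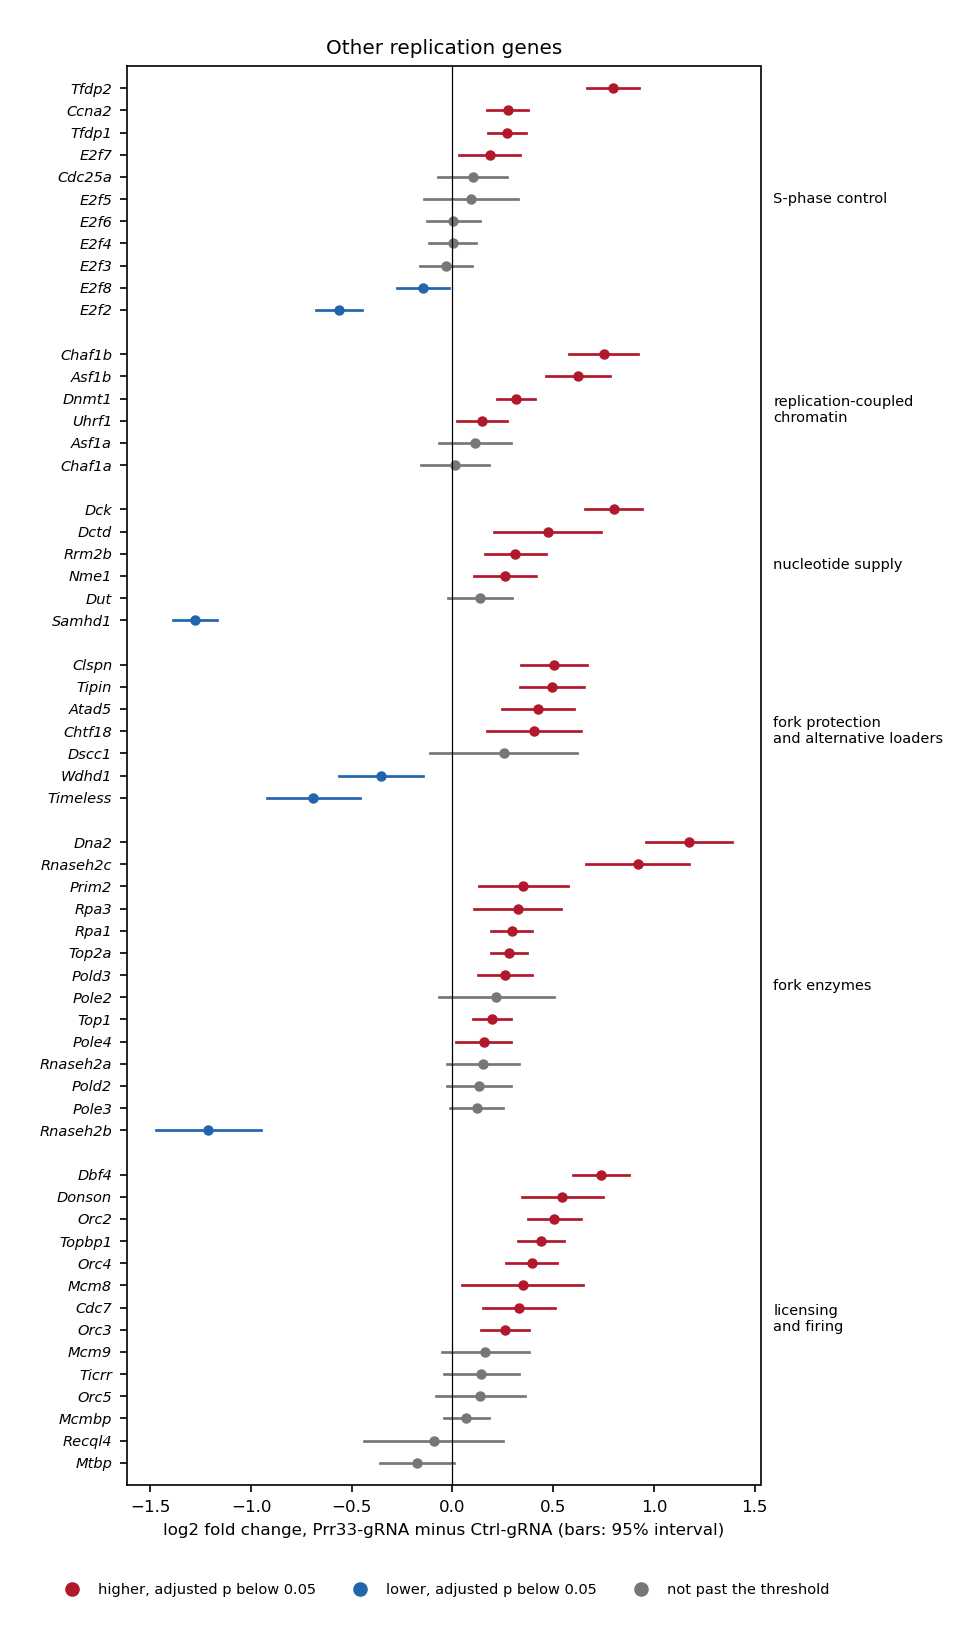
Log2 fold change of tested genes of the wider replication list, Prr33-gRNA minus Ctrl-gRNA (edgeR, 3 libraries a group), grouped by role, with bars for the 95% interval. Most points lie right of 0, and the 6 blue points are Rnaseh2b, Timeless, Wdhd1, Samhd1, E2f2 and E2f8.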

How the data were processed

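Counts of reads per gene were deposited by the authors for 6 libraries, with no normalization. The authors also deposited FPKM values, which equal counts over gene length and a constant per library, and which served here for levels between genes and for 2 alternative tests. The submitters' processing notes name featureCounts 1.5.0-p3, HISAT2 2.0.5, CASAVA and the mm10 build, without roles or a strand setting. The 333 rows without an Ensembl ID held 0.199% to 0.252% of counts and stayed in the fit.

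Counts were fitted on the whole table with edgeR 4.0.16 in R 4.3.3 (filterByExpr, TMM, robust quasi-likelihood fit), with 2 groups and no covariate. SE is the absolute log2 fold change over the square root of F. Precision follows depth: 1 count is 0.0500 to 0.0607 CPM. Intervals cover 95%. Simulated counts had 14419 genes tested, with 50 of them altered per fold size. Of those, 21 were recovered at a fold of 1.25, 33 at 1.5, 41 at 2 and 49 at 4. Another 17 calls were false. The p adjustment depends on how many genes differ, and 52.1% of tested genes were called in the data, far more than were altered here. The recovered numbers therefore do not measure what could be detected in the data. No libraries were treated as duplicates, since chi-square per gene between members of a group was 2.76 to 5.32. Exonic overlap, exonic lengths and neighbours come from GENCODE M21 (GRCm38), in which all 39 members have the deposited start and end, and promoters from RefSeq.

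The members and lists were chosen with earlier results of these data known. Named genes are all members, up to 4 per wider list with the lowest adjusted p, Prr33 and the markers. Wdhd1, E2f7, E2f8, Mcm8, Pole4 and the neighbours and overlapping genes were named after their values were seen. In the wider list 1 gene is counted but not otherwise reported here. Alternatives were RLE and library-size scaling, DESeq2 1.42.0, limma-voom and limma 3.58.1 on log2 FPKM, other filters, protein-coding genes only, chromosome 14 left out, a replicate block, leaving out each library, and stricter thresholds. Figures were drawn with matplotlib 3.10.9.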

Additional observations from a re-analysis of the deposited data

How the results depend on the processing

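The 39 members had 663 values over 17 alternative fits that keep the thresholds. Of these, 619 kept their call or stayed uncalled, 29 lost a call, 15 gained one, and 0 called values changed sign. Sign changes of uncalled members were not scored: Gins3 ran from -0.02 to 0.23 and Prim1 from -0.17 to 0.0004. Of the 26 higher members 21 kept the call in each of these fits, as did Mcm6 in falling (-0.82 to -0.69). Scaling by library size alone raised the members' median to 0.39, with 32 members higher and 2 lower, and turned the split of all genes from 3740 higher and 3899 lower into 4999 and 3103. Leaving out single libraries gave 21 to 26 members higher, 1 to 3 lower, medians of 0.25 to 0.34, 30 to 34 wider-list genes higher and 5 to 6 lower; without Prr33-gRNA replicate 1 the lower members numbered 1, since Gins2 lost its call. Leaving out the 2 members that share over 20% of their exonic bases also left 1 lower member. With a minimum log2 fold change of 1 in either direction, 0 members were higher and 0 lower, and of the wider list 1 gene was higher and 2 were lower. Same-numbered libraries showed no shared deviation from their group means (r = -0.02, -0.00 and 0.06), and the numbers were not taken as pairs. With a replicate block 26 members were higher and 2 lower, as without it, and the share of counts and the Mcm6 ratio gave an exact sign-flip p of 0.25, the smallest that 3 pairs allow. Gins1, Orc1 and Fen1, all below 10 CPM, have SEs of 0.16 to 0.27, which limits what can be detected for them.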
